A study of Homo sapiens with 6 samples.

Results

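Genes of cholesterol and fatty acid synthesis were followed in F36P, a human cell line established from acute erythroid leukaemia. The set holds 31 of the 14821 genes in the deposited table. They were taken by name for their place in the pathway, but with earlier results of these data already known. They comprise 18 steps of sterol synthesis in pathway order, 6 genes of regulation and sterol handling, and 7 of fatty acid synthesis and desaturation. The list does not hold every enzyme of the pathway. In 3 libraries the cells carried the MSCV-PIG-AM-ERG retrovirus, which carries the ETS-family transcription factor ERG, and their genotype is labelled ERG overexpression. In the other 3 they carried the empty MSCV-PIG virus (vector; genotype labelled WT). Both groups went through 4 days of puromycin selection (1 µg/ml). The study asked how ERG inhibits erythroid differentiation. The sample titles label the libraries of each group as biological replicates. Whether the selected cells were a pool or a clone, and whether replicates came from separate transductions, the sources used here do not say. The p-values then measure only the spread between these libraries, which may be technical.

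Cholesterol is built from acetyl-CoA by way of mevalonate, isoprenoid units, squalene and lanosterol, in a chain of enzymes of the cytosol and endoplasmic reticulum. SREBP transcription factors, encoded by SREBF1 and SREBF2, activate most genes of the chain and of fatty acid synthesis. They are held in the endoplasmic reticulum by INSIG proteins while sterols are plentiful, and are carried to the Golgi by SCAP and cleaved when sterols run short. The factors are therefore regulated largely as proteins, which a table of RNA counts does not show.

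ERG RNA stood at 97.4, 103 and 104 CPM in ERG replicates 1, 2 and 3 and 28.1, 14.6 and 22.4 CPM in vector replicates 1, 2 and 3 (4.68-fold, log2 2.23, edgeR adjusted p = 0.011), so each library labelled ERG lay above each labelled vector. The edgeR adjusted p was 0.0716 without ERG replicate 1, 0.0729 without ERG replicate 2 and 0.0544 without vector replicate 3, at log2 changes of 2.25, 2.22 and 2.25. CPM here are counts scaled to the TMM-normalised library size. The column totals ranged from 10257141 to 14803031 counts. The libraries also fell into 2 sets that cut across the groups: ERG replicates 1 and 2 with vector replicate 1 (set A), and ERG replicate 3 with vector replicates 2 and 3 (set B). The sets were known from earlier results of these data and are no groups of the study. They were the same over 14018 genes after the members and all other lists used here had been left out, with correlations of log2 CPM of at least 0.966 within a set and at most 0.962 between the sets. Totals did not separate the sets. A chi-square test of their counts put ERG replicates 1 and 2 apart by 2.201 per degree of freedom, more than sampling noise but far less than any other pair (at least 21.6). What the sets stand for was not tested.

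No member passed the test of ERG against vector. Of the 31 genes, 0 rose and 0 fell at an edgeR adjusted p of 0.05, where 2.2% of all 14203 tested genes passed (1.47% higher and 0.732% lower). All 31 members were tested. The lowest adjusted p among them was 0.238 (SREBF1), and DESeq2 and limma-voom also called 0 members. At an unadjusted p under 0.05 there was 1 member, SREBF1, against 15.9% of all genes. The log2 differences ran from -0.83 to 0.58 with a median of -0.34 (all tested genes -0.010), and 27 of 31 were negative, beside 51.1% of all genes. The ERG and vector libraries overlapped for 29 members, whereas 21.9% of all genes had groups that did not overlap. Leaving out any 1 library also left 0 members past the threshold in edgeR. The count over all genes, 313, was 0 without ERG replicate 1 or 2, 19 without vector replicate 2 and 51 without vector replicate 3. Without ERG replicate 3, 15 of 31 members had an unadjusted p under 0.05, beside 25.2% of all genes in that fit.

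Set B held 1 of the 3 ERG libraries and 2 of the 3 vector libraries. When edgeR was given a term for the set, the median log2 difference was -0.023, and 16 members were negative and 15 positive. The median standard error of a member's log2 difference was 0.37 without the term and 0.12 with it. In that model STARD4 was higher and MVD lower with ERG, 2 of 31 members, while 13.2% of all genes passed (7.2% higher, 5.96% lower). Because the sets were drawn from these libraries and ERG replicates 1 and 2 are so alike, p-values with the set term may be too low.

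**Figure D1:**
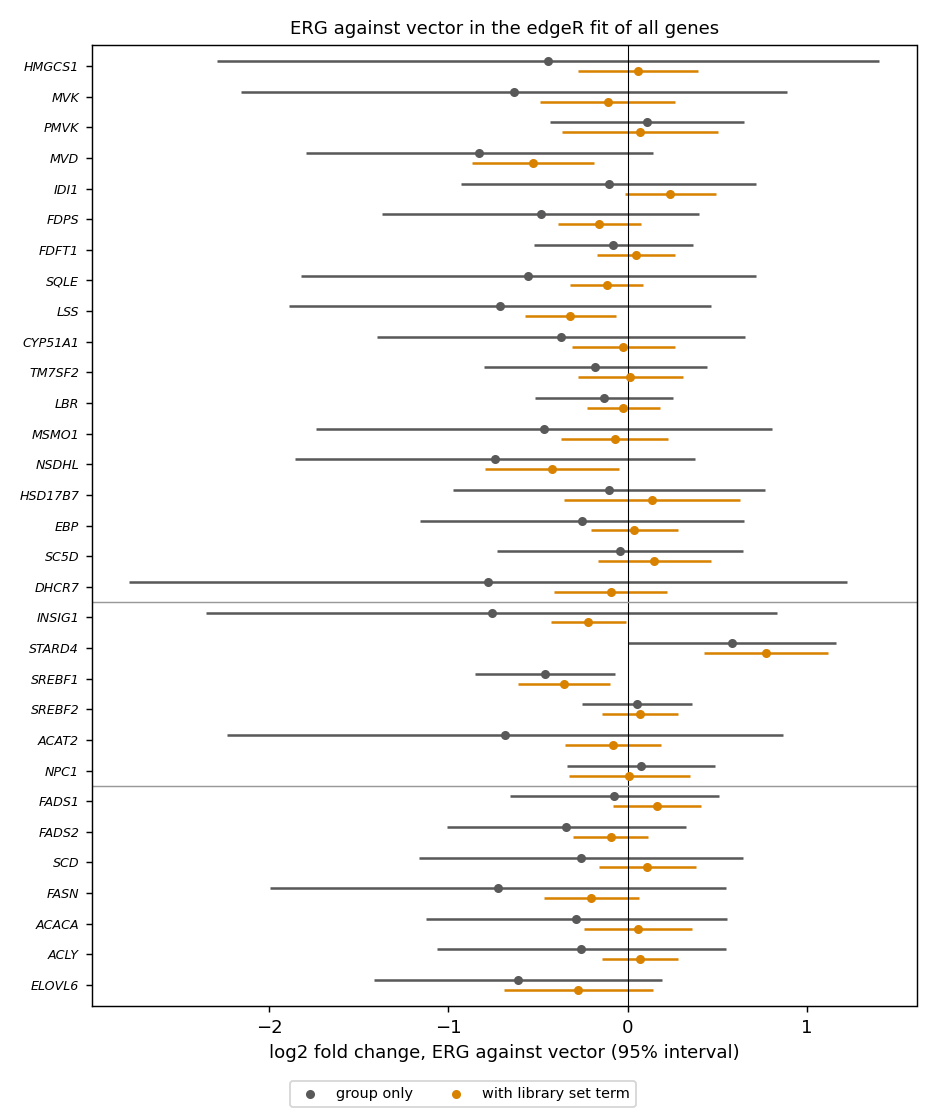
Log2 fold change of each member, ERG against vector (x axis), with its 95% interval, from edgeR with the group alone (grey) and with a term for the library set (orange); lines divide sterol synthesis, regulators with sterol handling, and fatty acid genes. With the group alone the DHCR7 interval runs from -2.78 to 1.22; with the set term it runs from -0.41 to 0.22, and STARD4 and MVD are the members that pass.

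At these genes the libraries divided by set. For 26 of 31 members all 3 libraries of set B stood above all 3 of set A, an ordering found for 22.6% of all tested genes (the reverse in 20.4%, and in 1 member, NPC1). In 9 members the lowest library of set B was at least 2-fold the highest of set A, against 0.556% of all genes (79 genes). These members were HMGCS1, MVK, SQLE, LSS, MSMO1, DHCR7, INSIG1, ACAT2 and FASN. The sets were defined on these libraries, so the orderings are a description with no test. Vector replicate 1 differed from ERG replicate 1 by a median of 1.11-fold over the members, and from vector replicates 2 and 3 by 1.84-fold and 2.17-fold. Over all tested genes the same medians were 1.22-fold, 1.32-fold and 1.33-fold.

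**Figure D2:**
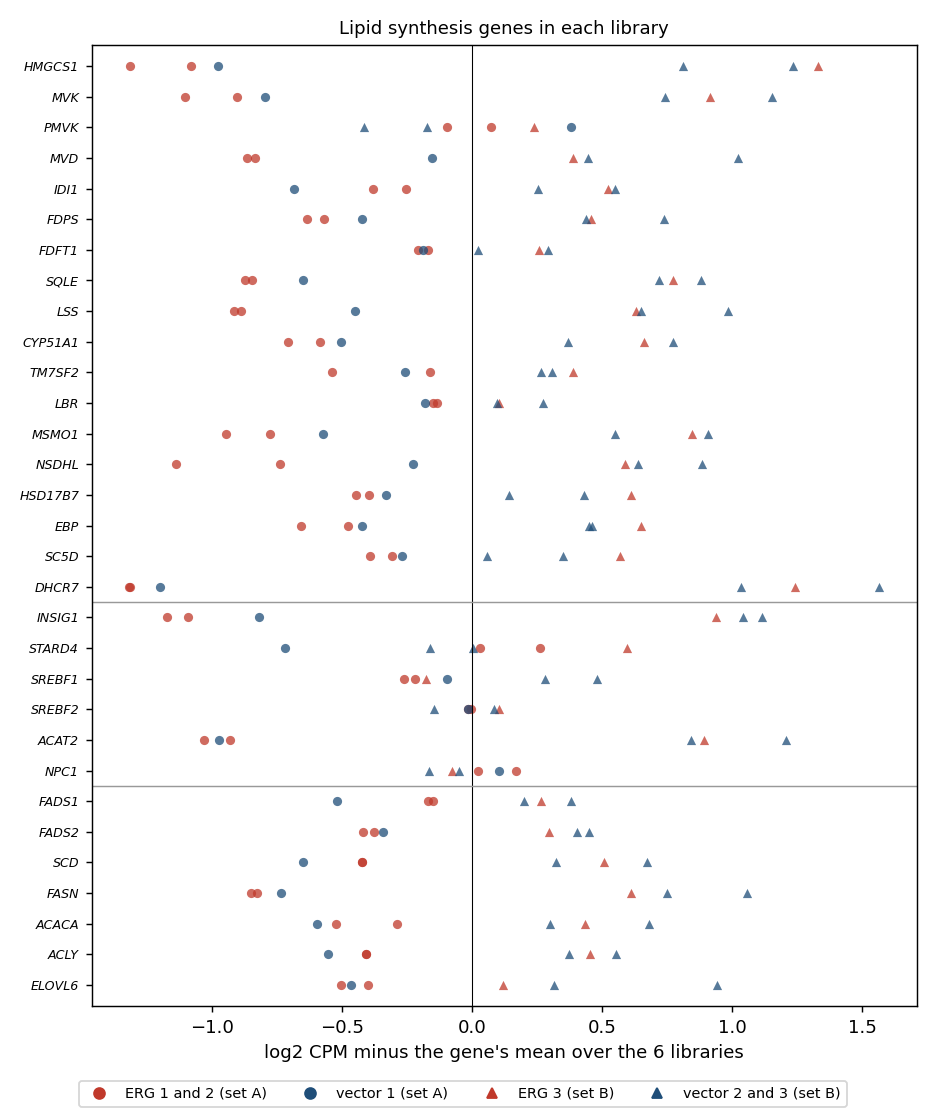
Log2 CPM of each member in each of the 6 libraries as the distance from that gene's mean (x axis), with ERG in red and vector in blue, set A as circles and set B as triangles. Circles lie left and triangles right for most genes whatever their colour. In PMVK, STARD4, SREBF1 and SREBF2 the sets overlap, and NPC1 has the reverse order. Within each group STARD4 and SREBF1 are still higher in set B.

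Promoter sequences are shown for members with a wide gap between the sets and for members whose sets overlapped. RefSeq (GRCh38.p14, the hg38 build) gave promoters for 27 of the 31, and the 250 bases before the start were searched on both strands. ACAT2, FDFT1, FASN and SQLE had none, although ACAT2, FASN and SQLE were among the members with a gap of at least 2-fold. Those printed are members with a single promoter in the table: first the 3 with the widest gap between the sets, then the 4 whose sets overlapped. Capitals mark CCAAT on either strand, the letters bound by NF-Y, a partner of SREBP, and TCACNCCAC, a core of the sterol response element. No motif searched contains another.
INSIG1, chr7:155297628-155297877, plus strand: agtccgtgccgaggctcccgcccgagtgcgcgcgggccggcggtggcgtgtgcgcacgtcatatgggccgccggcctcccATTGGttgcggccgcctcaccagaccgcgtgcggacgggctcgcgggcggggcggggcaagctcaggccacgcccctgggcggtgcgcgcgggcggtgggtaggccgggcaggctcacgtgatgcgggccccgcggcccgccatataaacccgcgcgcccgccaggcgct
MVK, chr12:109573544-109573793, plus strand: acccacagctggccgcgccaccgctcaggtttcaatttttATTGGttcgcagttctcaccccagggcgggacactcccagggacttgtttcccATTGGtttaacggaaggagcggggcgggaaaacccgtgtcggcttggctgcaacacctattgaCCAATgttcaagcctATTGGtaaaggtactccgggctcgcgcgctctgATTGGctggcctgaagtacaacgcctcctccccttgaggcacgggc
MSMO1, chr4:165327419-165327668, plus strand: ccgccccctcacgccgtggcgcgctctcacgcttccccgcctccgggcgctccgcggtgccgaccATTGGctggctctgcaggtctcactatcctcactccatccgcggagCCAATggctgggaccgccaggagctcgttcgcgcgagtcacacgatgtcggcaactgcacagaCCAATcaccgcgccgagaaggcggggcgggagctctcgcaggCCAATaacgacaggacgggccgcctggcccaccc
SREBF2, chr22:41832855-41833104, plus strand: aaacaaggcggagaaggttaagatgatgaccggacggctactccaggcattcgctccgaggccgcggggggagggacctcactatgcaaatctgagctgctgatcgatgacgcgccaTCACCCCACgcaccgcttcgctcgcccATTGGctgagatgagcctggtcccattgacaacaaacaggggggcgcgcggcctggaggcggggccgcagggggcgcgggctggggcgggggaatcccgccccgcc
PMVK, chr1:154936720-154936969, minus strand: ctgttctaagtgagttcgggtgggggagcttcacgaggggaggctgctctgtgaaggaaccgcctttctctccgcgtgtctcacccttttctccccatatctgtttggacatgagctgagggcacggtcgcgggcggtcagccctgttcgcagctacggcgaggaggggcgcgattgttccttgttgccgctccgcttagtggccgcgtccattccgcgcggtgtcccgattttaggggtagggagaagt
STARD4, chr5:111512536-111512785, minus strand: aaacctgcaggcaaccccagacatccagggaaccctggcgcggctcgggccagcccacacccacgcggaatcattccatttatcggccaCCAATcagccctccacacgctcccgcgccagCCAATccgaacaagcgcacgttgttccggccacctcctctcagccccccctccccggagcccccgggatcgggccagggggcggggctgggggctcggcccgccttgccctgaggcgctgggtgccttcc
SREBF1, chr17:17836987-17837236, minus strand: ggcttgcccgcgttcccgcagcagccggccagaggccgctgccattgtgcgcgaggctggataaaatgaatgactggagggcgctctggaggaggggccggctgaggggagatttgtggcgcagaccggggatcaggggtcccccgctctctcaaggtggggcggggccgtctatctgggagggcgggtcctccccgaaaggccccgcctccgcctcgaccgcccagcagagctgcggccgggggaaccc

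CCAAT stood in the windows of 19 of 27 members (70.4%), against 41.6% of the 10168 tested genes with a promoter in the table. A gene counted if any of its RefSeq promoters held a match. DHCR7 and ACACA held none in the promoter nearest the GENCODE gene start and counted through another. For FADS1, FADS2, ACLY and DHCR7 the nearest RefSeq start lay 12315, 23223, 11520 and 3825 bases from the GENCODE start. MVK held 5 matches, MSMO1 4 and INSIG1 1, while PMVK and SREBF1 held none. SREBF2 and STARD4 also held CCAAT. CYP51A1, LBR, FADS1, FADS2 and ELOVL6, which were higher in set B, did not, nor did NPC1, which had the reverse order. The printed members were picked by their values in the sets, and any part of CCAAT in the division was not tested. TCACNCCAC was found in SREBF2 alone among the members and in 1.04% of tested genes. GGGCGG, the GC box, was in 25 of the 27 members (92.6%, tested genes 72.8%) and the E-box CACGTG in 2 (7.41%, tested genes 11.1%). CCGGAAG, an ETS-type motif, was in 3 (11.1%, tested genes 19.5%), which were IDI1, FDPS and CYP51A1.

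The first steps turn acetyl-CoA units into mevalonate and then isoprenoid units. HMGCS1, the synthase that makes HMG-CoA (chromosome 5, 43289395 to 43313512 on hg38), was at 47.2, 40.04 and 252 CPM in ERG replicates 1, 2 and 3 and 50.6, 176 and 235 CPM in vector replicates 1, 2 and 3. It was low in ERG replicates 1 and 2 and vector replicate 1 and high in the other 3 libraries, so the groups overlapped (log2 -0.44, 95% interval -2.29 to 1.403). ACAT2, which makes acetoacetyl-CoA in the cytosol, had the same division, at 26.5, 28.5 and 101 CPM with ERG and 27.6, 97.6 and 126 CPM with vector. MVK, mevalonate kinase, was at 5.94, 6.86 and 24.6 CPM with ERG and 7.39, 21.8 and 29.1 CPM with vector, a low level at which set B was still 2.95-fold above set A by their nearest libraries. The next kinase of the chain did not show this division: PMVK, phosphomevalonate kinase, was at 23.7, 21.05 and 26.6 CPM with ERG and 29.4, 16.8 and 19.96 CPM with vector, with its highest value in vector replicate 1.

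MVD, mevalonate diphosphate decarboxylase (chromosome 16, 88651935 to 88663161), had the largest ERG difference of the sterol steps, at 39.1, 39.9 and 93.4 CPM in ERG replicates 1, 2 and 3 and 64.1, 97.2 and 145 CPM in vector replicates 1, 2 and 3. The mean was 57.5 ± 31.1 against 102 ± 40.8 CPM (SD, n = 3 each; log2 -0.83, interval -1.80 to 0.14, edgeR adjusted p = 0.385). Both ERG libraries of set A lay below the vector library of that set, and the ERG library of set B below both of its vector libraries, at log2 differences of -0.70 and -0.35. With the set term MVD was 1.44-fold lower with ERG and just passed (log2 -0.53, interval -0.87 to -0.19, edgeR adjusted p = 0.0491). IDI1, the isomerase of the isoprenoid unit, was at 65.5, 71.4 and 123 CPM with ERG and 52.9, 102 and 125 CPM with vector. FDPS, which joins these units to farnesyl diphosphate, was at 57.9, 55.3 and 118 CPM with ERG and 64.1, 117 and 143 CPM with vector, with the 3 libraries of set B at least 1.82-fold above those of set A.

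The squalene steps commit the chain to sterols. FDFT1, squalene synthase, varied little, at 198, 193 and 266 CPM with ERG and 196, 227 and 273 CPM with vector. SQLE, squalene epoxidase and a rate-controlling step (chromosome 8, 124998497 to 125022283), was at 112, 110.2 and 345 CPM in ERG replicates 1, 2 and 3 and 129, 333 and 372 CPM in vector replicates 1, 2 and 3. Its libraries formed 2 tight clusters that followed the set, and the ERG difference was -0.55 on the log2 scale (interval -1.82 to 0.72; with the set term -0.12, -0.32 to 0.088). LSS, which closes the ring to give lanosterol, was at 46.3, 47.2 and 136 CPM with ERG and 63.99, 137 and 174 CPM with vector. LSS had the next largest gap of the squalene steps, 2.12-fold between the nearest libraries of the sets against 2.59-fold for SQLE and 1.14-fold for FDFT1.

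From lanosterol to cholesterol the members differed widely in how far the sets lay apart. CYP51A1, the lanosterol demethylase, was at 32.4, 29.8 and 77.1 CPM with ERG and 34.2, 62.98 and 83.3 CPM with vector. MSMO1, which removes further methyl groups, was at 27.7, 31.1 and 96.1 CPM with ERG and 35.8, 78.3 and 100.3 CPM with vector. NSDHL, the dehydrogenase that works with it, was at 13.1, 9.94 and 33.2 CPM with ERG and 18.8, 34.4 and 40.8 CPM with vector. All of these were higher in set B, and NSDHL had the lowest values in the ERG libraries of set A. TM7SF2 and LBR both reduce the same double bond of the sterol ring, and LBR is also a protein of the inner nuclear membrane. LBR was at 253, 256 and 302 CPM with ERG and 248, 339.8 and 301 CPM with vector, a spread of 1.37-fold over all libraries, and TM7SF2 spread 1.91-fold.

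DHCR7, the last reductase of one branch (chromosome 11, 71428193 to 71452868), showed the widest division of all members, at 23.1, 23.03 and 137 CPM in ERG replicates 1, 2 and 3 and 24.999, 118 and 171 CPM in vector replicates 1, 2 and 3. The lowest library of set B was 4.73-fold the highest of set A. ERG and vector libraries overlapped (mean 60.9 ± 65.6 against 105 ± 73.9 CPM, SD, n = 3 each; log2 -0.78, edgeR adjusted p = 0.695), and within the sets the ERG differences were -0.12 and -0.056. The isomerase EBP, the desaturase SC5D and the reductase HSD17B7 were all higher in set B by smaller gaps of 1.84-fold, 1.26-fold and 1.4001-fold, and HSD17B7 was low throughout (4.46 to 9.44 CPM). In all, 17 of the 18 sterol steps had set B above set A, the exception being PMVK.

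The RNA of the regulators themselves did not follow one pattern. SREBF2, whose protein is the main activator of sterol synthesis (chromosome 22, 41833079 to 41907308), was at 267, 269 and 291 CPM in ERG replicates 1, 2 and 3 and 268, 245 and 287 CPM in vector replicates 1, 2 and 3. These values spread 1.19-fold, and the sets overlapped, as did the groups (log2 0.051, interval -0.25 to 0.36). SREBF1, whose protein acts more on fatty acid genes, was at 139.8, 144 and 148 CPM with ERG and 157, 234 and 204 CPM with vector, so all ERG libraries were below all vector libraries (9.54% of all genes) without passing the test (log2 -0.46, interval -0.85 to -0.071, edgeR adjusted p = 0.238; with the set term 0.0725). INSIG1, which retains SREBPs and is itself one of their targets, was at 26.5, 25.02 and 109 CPM in ERG replicates 1, 2 and 3 and 32.04, 117 and 123 CPM in vector replicates 1, 2 and 3. Like DHCR7 and HMGCS1 it stood at least 3-fold higher in every library of set B (3.39-fold between the nearest libraries).

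STARD4, a carrier that moves cholesterol between membranes (chromosome 5, 111496033 to 111512590), was the 1 member with all ERG libraries above all vector libraries (12.3% of all genes), at 14.5, 17.002 and 21.5 CPM in ERG replicates 1, 2 and 3 and 8.54, 12.6 and 14.2 CPM in vector replicates 1, 2 and 3. The mean was 17.6 ± 3.54 against 11.8 ± 2.92 CPM (SD, n = 3 each; log2 0.58, interval -0.00050 to 1.17, edgeR adjusted p = 0.315). Within each set ERG was higher, by log2 0.87 in set A and 0.67 in set B, and with the set term STARD4 was 1.71-fold higher and passed (log2 0.77, interval 0.43 to 1.12, edgeR adjusted p = 0.0105). Its counts were low, 97 in vector replicate 1 and 316 in ERG replicate 3. NPC1, which exports cholesterol from lysosomes, was at 13.1, 14.5 and 12.2 CPM with ERG and 13.8, 12.4 and 11.4 CPM with vector and had set A slightly above set B.

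All 7 fatty acid genes had set B above set A, and none passed for ERG. FASN, the fatty acid synthase (chromosome 17, 82078333 to 82098332), was at 435, 442 and 1196 CPM in ERG replicates 1, 2 and 3 and 471, 1317 and 1634 CPM in vector replicates 1, 2 and 3. The lowest value of set B was 2.54-fold the highest of set A, the widest gap of this group (ERG against vector log2 -0.72, interval -1.99 to 0.55). ACLY, which supplies acetyl-CoA from citrate, was at 255, 255 and 465 CPM with ERG and 231, 439 and 498 CPM with vector. ACACA, the carboxylase that makes malonyl-CoA, was at 40.8, 48.1 and 79.6 CPM with ERG and 38.8, 72.4 and 94.4 CPM with vector. Both had narrower gaps, of 1.72-fold and 1.51-fold.

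The elongase ELOVL6, at 51.3, 55.2 and 79.1 CPM with ERG and 52.6, 140.1 and 90.5 CPM with vector, had its highest value in vector replicate 2 rather than 3. SCD, the stearoyl-CoA desaturase, was at 526, 526 and 1005 CPM with ERG and 451, 885 and 1127 CPM with vector. FADS2, the desaturase at the entry to polyunsaturated fatty acids (chromosome 11, 61792980 to 61867354), was at 614, 597 and 979 CPM in ERG replicates 1, 2 and 3 and 629, 1089 and 1056 CPM in vector replicates 1, 2 and 3, with a 1.56-fold gap between the sets. FADS1, which acts after FADS2, was at 206, 208 and 278 CPM with ERG and 161, 301 and 265 CPM with vector. Within set B the ERG difference was 0.0088 for SCD, -0.023 for FADS1, -0.13 for FADS2 and -0.51 for ELOVL6 on the log2 scale.

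Per kilobase of exon (GENCODE release 29, union of exons), FADS2, SCD and FASN were the most abundant members by their mean over the vector libraries. They stood at 186 ± 51.5, 153 ± 63.9 and 133 ± 70.2 CPM per kilobase (SD, n = 3). The SDs overlap, but much of the spread is shared between genes measured in the same libraries. In every library FADS2 stood above SCD and SCD above FASN. SQLE was the highest sterol step at 93.6 ± 44.04, close to ACLY (88.9 ± 32.1) and followed by LBR at 76.005 ± 11.8. These did not differ beyond their spread, and in the vector library of set A their order was the reverse. STARD4, NPC1, HSD17B7, ACACA and MVK were lowest, between 2.13 and 6.6004 CPM per kilobase. In the libraries of set A the order among the sterol steps changed: SQLE was at 37.1 in its lowest library, below the lowest value of LBR (63.6).

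**Figure D3:**
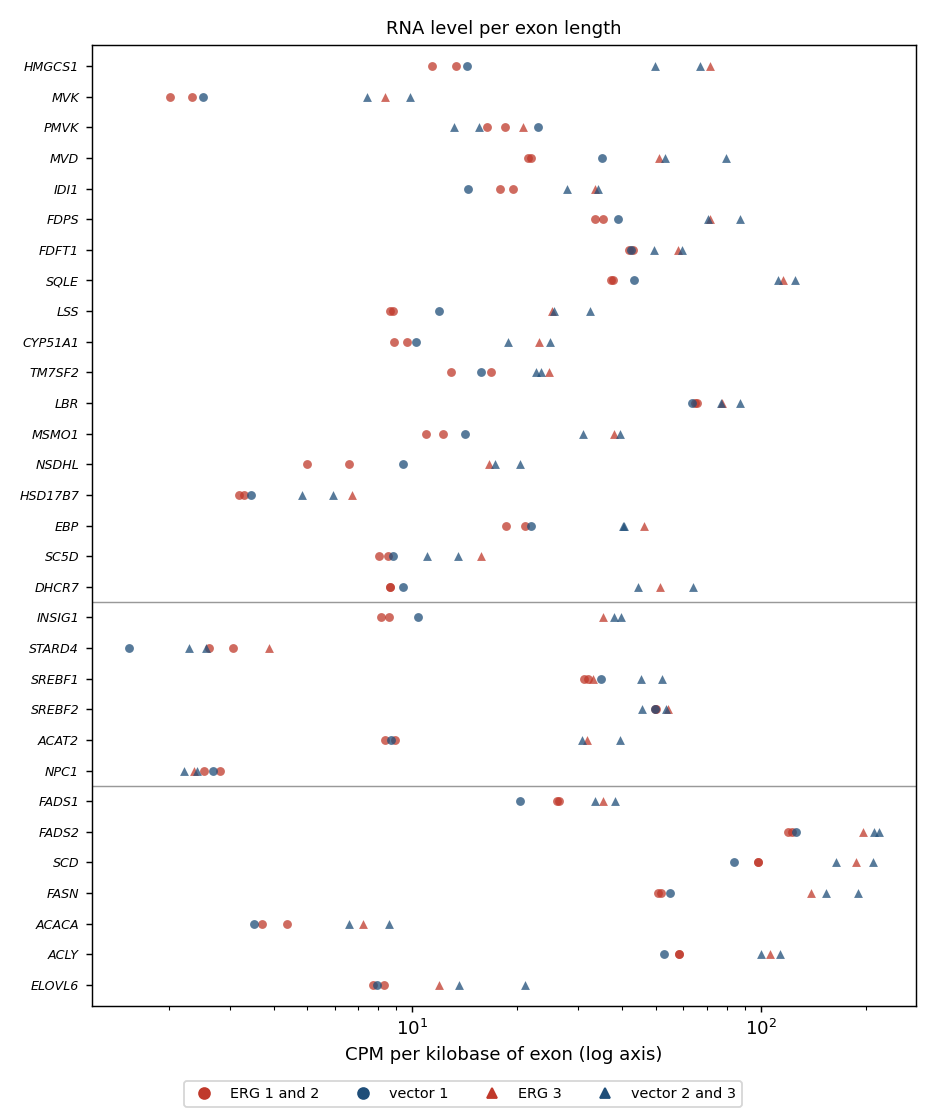
CPM per kilobase of exon (log axis) of each member in each library, with ERG in red, vector in blue, set A as circles and set B as triangles. By their mean over the vector libraries FADS2, SCD and FASN lie furthest right and STARD4, NPC1, HSD17B7, ACACA and MVK furthest left. SQLE lies below LBR in set A and above it in set B.

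Other genes of lipid metabolism were read from lists drawn up by function. None of the 115 tested genes in 8 lists passed for ERG in edgeR or limma-voom. At an unadjusted edgeR p under 0.05 there were 20 (17.4%), beside 15.9% of all genes. DESeq2 called 7, while it called 7.09% of all genes. Under the set model 3 were higher and 19 lower, beside 7.2% and 5.96% of all genes. The genes that process SREBPs resembled SREBF2 in being even across libraries, with a median coefficient of variation over the 6 libraries of 11.6% against 38.2% for the members and 22.1% for all genes. SCAP, the escort of SREBPs, was at 176, 179 and 179.8 CPM with ERG and 183, 163 and 181 CPM with vector. VCP, a general unfolding ATPase that also extracts INSIG proteins, was at 304, 289 and 485 CPM with ERG and 289, 436 and 486 CPM with vector and was the gene of this list with set B above set A.

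A further list of 19 genes held SREBP targets and also subunits of NF-Y, a partner of SREBP. Of these genes 7 had set B above set A and 0 reached a 2-fold gap (all genes 22.6% and 0.556%). The most abundant were CYB5R3, a reductase that serves desaturases, at 263, 269 and 286 CPM with ERG and 378, 308 and 391 CPM with vector, and PGD, of the pentose phosphate pathway. PGD was at 259.6, 257 and 295 CPM with ERG and 344, 319.9 and 289 CPM with vector. CYB5R3 was lower in all ERG libraries and passed with the set term (log2 -0.40, edgeR adjusted p = 0.0448). NFYA, a subunit of NF-Y, was the other gene of this list that passed with that term, and it was higher (log2 0.49, edgeR adjusted p = 0.0269), at 71.7, 74.7 and 111 CPM with ERG and 50.6, 69.2 and 93.2 CPM with vector. TMEM97, a sterol-regulated membrane protein named after its values were seen, had the widest gap of this list, at 20.2, 23.7 and 61.99 CPM with ERG and 23.3, 44.8 and 57.8 CPM with vector. In the isoprenoid branch, which leads to prenyl groups, ubiquinone and dolichol, 6 of 14 genes had set B above set A (all genes 22.6%). NUS1, of dolichol synthesis, was at 96.5, 106 and 139.8 CPM with ERG and 104, 149 and 148 CPM with vector. ICMT, which methylates prenylated proteins, was at 78.7, 76.9 and 133 CPM with ERG and 72.97, 139 and 129 CPM with vector. In both genes vector replicate 1 lay with ERG replicates 1 and 2.

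Of 13 genes of uptake and transport, 2 had set B above set A (all genes 22.6%). SCARB1, a lipoprotein receptor, was at 81.5, 83.8 and 166 CPM with ERG and 92.8, 185 and 194 CPM with vector and followed the sets. OSBPL9, a lipid transfer protein, was at 146, 139 and 135 CPM with ERG and 132, 154 and 138 CPM with vector and did not. With the set term 3 of the 13 were lower and 0 higher, beside 5.96% and 7.2% of all genes. The 3 were NPC2, LRP1 and LRPAP1 (edgeR adjusted p = 0.0065, 0.0183 and 0.047). NPC2, the soluble partner of NPC1, was at 31.8, 29.1 and 26.9 CPM with ERG and 75.97, 45.5 and 34.4 CPM with vector, lower in all ERG libraries. Among 7 genes of LXR receptors and export none had set B above set A (all genes 22.6%). In 4 of them all ERG libraries lay below all vector libraries (all genes 9.54%). The sterol receptor gene NR1H2 was at 133, 139.5 and 118 CPM with ERG and 216, 141 and 147 CPM with vector. The transporter gene ABCA7 was at 67.6, 68.6 and 44.4 CPM with ERG and 151, 104 and 76.2 CPM with vector. Both were among 3 genes lower with the set term (all genes 5.96%), the other being LPCAT3. With the term the edgeR adjusted p was 0.0127, 0.000537 and 0.0472, and none passed without it (0.397, 0.181 and 0.156).

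Esterification and lipid droplet genes gave 2 of 11 with set B above set A (all genes 22.6%). PLIN3, a coat protein of droplets, was at 148, 143 and 165 CPM with ERG and 220.4, 197 and 195 CPM with vector. PNPLA2, a triglyceride lipase, was at 147, 149 and 107 CPM with ERG and 143, 82.6 and 96.5 CPM with vector. PLIN3 was lower in all ERG libraries (edgeR adjusted p = 0.165, with the set term 0.0206), and ABHD5, which activates PNPLA2, was the other gene of the list lower with that term (0.0171). Of 17 other elongation and activation genes, 5 had set B above set A (all genes 22.6%). ACSL4, which activates arachidonic acid, was at 336, 328 and 322 CPM with ERG and 229.9, 186 and 228 CPM with vector, so that all ERG libraries lay above all vector libraries (log2 0.62, edgeR adjusted p = 0.0767; with the set term 0.00516). HSD17B12, of the elongation cycle, was at 219.5, 213 and 172 CPM with ERG and 222, 168 and 181 CPM with vector. Under the set model 2 of this list were higher and 4 lower, beside 7.2% and 5.96% of all genes. ACSL4 and ELOVL7 were higher, and ACSL5, FADS3, MCAT and ACAT1 lower.

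Fatty acid oxidation, the opposing pathway, did not share the division. Of its 20 genes 2 had set B above set A and 4 the reverse (all genes 22.6% and 20.4%). For 7 of the 20 all ERG libraries lay below all vector libraries (all genes 9.54%). HADHA, of the trifunctional protein, was at 230.3, 221 and 209 CPM with ERG and 298, 249 and 232 CPM with vector. ETFA, an electron carrier, was at 139.9, 135 and 166 CPM with ERG and 189, 194 and 183 CPM with vector. With the set term 6 of the 20 were lower and 0 higher, beside 5.96% and 7.2% of all genes. ETFA was among them (edgeR adjusted p = 0.0475).

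**Figure D4:**
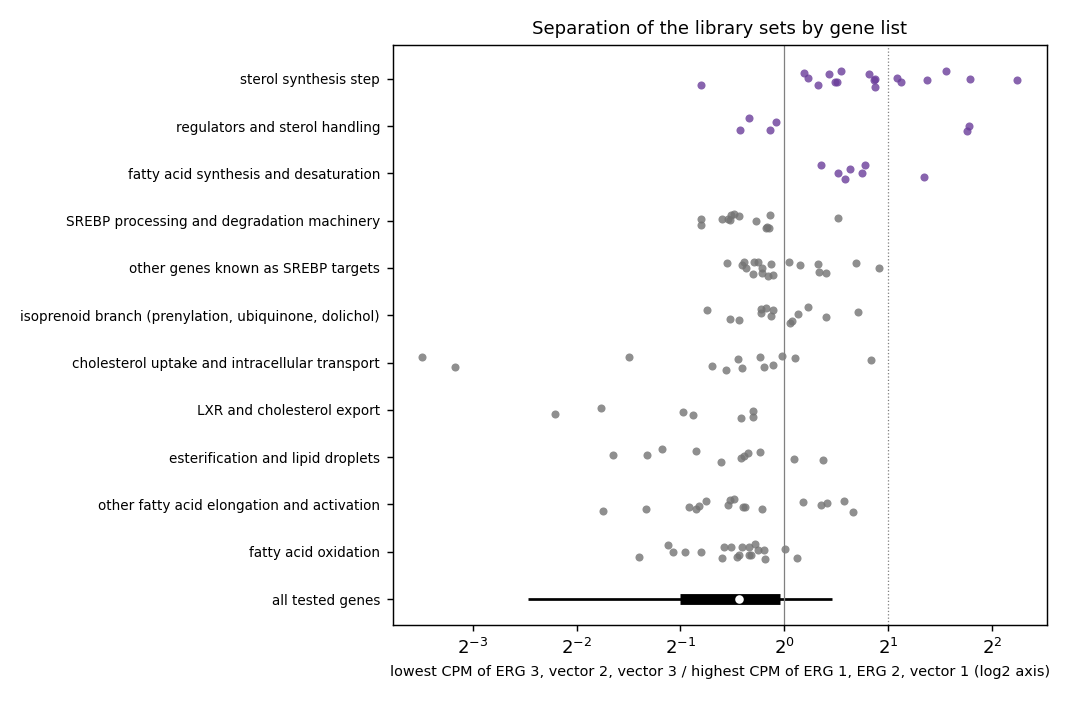
For each gene (points) of the 3 member groups (purple) and 8 other lists (grey), the lowest CPM of set B divided by the highest of set A (log2 axis); values above 1 mean that all of set B lay above all of set A, and the dotted line marks 2-fold. The bottom bar gives all tested genes (thick from percentile 25 to 75, thin from 5 to 95); 9 members and no gene of the other lists lie at or beyond 2-fold.

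Cell type markers were read beside these values. The erythroid list was detected in every library, with summed levels of 3615 to 6655 CPM with ERG and 10882 to 18755 CPM with vector. The megakaryocyte list stood at 1381 to 2610.2 against 549 to 1187 CPM, and the mast cell list at 1908 to 2008 against 596 to 947 CPM. For these 3 lists the ERG and vector sums did not overlap. Within each group the sums also moved with the set: the megakaryocyte sum was lower in ERG replicate 3 than in ERG replicates 1 and 2 and lower in vector replicates 2 and 3 than in vector replicate 1, and the erythroid sum was higher in the same libraries. The part of these lists in the members' values was not tested. The 10 proliferation genes summed to 1332 to 1551 CPM in set A and 1922 to 2089 CPM in set B. Of these genes 9 had set B above set A (all genes 22.6%). Their part in the division of the members was not tested. In bulk RNA, fewer cells of a type and less RNA per cell cannot be told apart. Of the lymphoid and myeloid markers, 2 of 7 and 2 of 8 were among the rows analysed here, and their sums were at most 48.8 and 201 CPM.

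Reads of some members may be shared with other genes, since the counting and its use of strand are not given in the sources used here. MVK overlaps MMAB, ACAT2 overlaps TCP1 and SOD2, SREBF1 overlaps RAI1, NPC1 overlaps RMC1, and FADS1 and FADS2 overlap each other, all on opposite strands. IDI1, FDPS and STARD4 overlap the antisense genes IDI2-AS1, RUSC1-AS1 and STARD4-AS1. On the same strand, TM7SF2 overlaps VPS51 (2566 against 8740 counts) and FADS2 overlaps FEN1 (63201 against 6966), which counting by strand would not separate. TCP1 had 29387 counts against 5122 of ACAT2 over the 6 libraries. CYP51A1, HSD17B7 and SCD have copies among the rows, of which HSD17B7P2 had 236 counts against 492 of HSD17B7.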

How the data were processed

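Poly(A) RNA was sequenced in 3 ERG and 3 vector libraries, per the labels' protocols. The authors' deposited table holds whole-number read counts per gene; the name of the table says CPM, but the column totals differ, as they would not in CPM. Genome build hg38 and edgeR 3.32.1 are named in the submitters' processing notes; aligner, counter and annotation are not given in the sources used here. Control columns carry another word than the sample titles and were assigned to vector as the only group besides ERG.

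The counts were fitted in edgeR 4.0.16 (R 4.3.3) with TMM normalisation and the two-sided quasi-likelihood test over all genes that reached 1 CPM in 3 or more libraries (14203 genes, 618 not tested). Adjustment was by Benjamini and Hochberg over every tested gene, with a threshold of 0.05. The SE is the log2 fold change over the square root of F, and 95% intervals use it with the fit's degrees of freedom. Differences within a set use log2 CPM (prior count 2). Alternatives used DESeq2 1.42.0, limma 3.58.1 (voom), other scalings and filters, a term for the library set, ERG replicates 1 and 2 summed, and each library left out. The edgeR script was tested on simulated data that held no library sets and no near-identical libraries. That test therefore says nothing about their effect here. Depth limits the precision of genes with few counts.

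The members and lists were chosen with earlier results of these data known. Values in every library were to be given for members past the threshold with or without the set term, and for the most abundant and most changed members of each group; values of other members were added after they had been seen. Of the other lists the 2 most abundant genes were named where none passed. Genes of these lists named for passing with the set term were added after their values were seen. Coordinates and exon lengths come from GENCODE release 29. Some genes of the pathway are not reported here.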

Additional observations from a re-analysis of the deposited data

How the results depend on the processing

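The count of members past the threshold was 0 in the edgeR fit and stayed 0 in every alternative except the library set term (2, STARD4 and MVD) and the replicate block (1, MVD at log2 -0.88, adjusted p 0.0169). Leaving out 1 library gave 0 members each time (edgeR; lowest adjusted p 0.0588). Over all genes edgeR called 313, the block 905, the set term 1869 and DESeq2 1006. With ERG replicates 1 and 2 summed edgeR called 0, with 1277 genes at an unadjusted p under 0.05, and the cause was not tested. Leaving out 1 library gave 0 to 441: 0 without ERG replicate 1 or 2 (1278 and 1256 by the unadjusted p), 19 without vector replicate 2, 51 without vector replicate 3 and 441 without ERG replicate 3 or vector replicate 1. Of the genes in the other lists, 0 passed in edgeR, 1 with DESeq2 size factors, 7 in DESeq2, 9 with the block, 22 with the set term and 0 to 2 with 1 library left out (2 without ERG replicate 3). Deviations from the group means of same-numbered libraries correlated at 0.63, -0.28 and 0.59. ERG replicates 1 and 3 correlated best with the vector library of the same number, and ERG replicate 2 with vector replicate 1 (0.59). ERG replicates 1 and 2 are so alike that these values cannot tell whether the replicate numbers pair cultures.

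Among the members' log2 differences under alternatives, 428 kept sign and side of the threshold, 3 came to pass and 34 changed sign, none of these past the threshold. With the set term the values that changed sign were HMGCS1 0.058, IDI1 0.24, FDFT1 0.047, TM7SF2 0.015, HSD17B7 0.13, EBP 0.036, SC5D 0.15, FADS1 0.16, SCD 0.11, ACACA 0.059 and ACLY 0.067. With ERG replicates 1 and 2 summed they were IDI1 0.038, HSD17B7 0.064 and SC5D 0.11, and with library totals alone SC5D 0.00016. With 1 library left out they ranged as follows: HMGCS1 -1.81 to 4.7e-05, PMVK -0.054 to 0.37, IDI1 -0.44 to 0.16, FDFT1 -0.24 to 0.056, TM7SF2 -0.46 to 0.012, HSD17B7 -0.54 to 0.088, SC5D -0.42 to 0.13, SREBF2 -0.0063 to 0.11, FADS1 -0.30 to 0.11, SCD -0.64 to 0.040 and ACACA -0.62 to 0.017. The log2 change of ERG lost its call with ERG replicates 1 and 2 summed and when ERG replicate 1, ERG replicate 2 or vector replicate 3 was left out (edgeR adjusted p = 0.0738, 0.0716, 0.0729, 0.0544).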

Other observations

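Of the 115 tested genes in the other lists, 25 had all libraries of set A above all of set B, the reverse order of the synthesis genes. Another 25 had set B above set A. Over all tested genes 20.4% had set A above set B, so the order is no trait of these lists. The genes below were picked from those with set A above set B after their values were seen, and are given with no test. VLDLR, a receptor that takes up lipoproteins, was at 48.2, 48.4 and 8.69 CPM in ERG replicates 1, 2 and 3 and 59.2, 6.55 and 14.77 CPM in vector replicates 1, 2 and 3, so that the lowest library of set A was 3.26-fold the highest of set B. ABCA1, which exports cholesterol from the cell, was at 10.9, 9.804 and 4.28 CPM in ERG replicates 1, 2 and 3 and 6.95, 4.04 and 2.35 CPM in vector replicates 1, 2 and 3. PLIN2, a coat protein of lipid droplets, was at 142, 137 and 86.5 CPM in ERG replicates 1, 2 and 3 and 148, 74.9 and 59.1 CPM in vector replicates 1, 2 and 3. ACSL1, an acyl-CoA synthetase, was at 83.8, 77.1 and 37.8 CPM in ERG replicates 1, 2 and 3 and 95.4, 42.7 and 41.97 CPM in vector replicates 1, 2 and 3. For each of these the ERG and vector libraries overlapped, and the edgeR adjusted p of ERG against vector was 0.848, 0.418, 0.639 and 0.884.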
